A study of Mus musculus with 8 samples.

Results

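The 10 genes described here encode the enzymes that turn cholesterol into bile acids in the liver and join them to an amino acid. They were taken by name, as the rows of the authors' deposited table whose symbol is Cyp7a1, Cyp8b1, Cyp27a1, Cyp7b1, Cyp39a1, Hsd3b7, Akr1d1, Amacr, Slc27a5 or Baat, and all 10 were found among its 16640 genes. The table compares whole livers of 4 Huwe1_LKO mice, in which the ubiquitin ligase gene Huwe1 is deleted in the liver only, with livers of 4 WT mice. All 8 mice were 1 year old and had been fed chow. The sources used here give neither sex, nor the hour of collection, nor the driver of the deletion.

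Bile acids are made in hepatocytes by 2 routes. The classical route starts when Cyp7a1 hydroxylates cholesterol in the endoplasmic reticulum, and the alternative route starts with the mitochondrial enzyme Cyp27a1. The sterol ring is then remodelled, the side chain is shortened in peroxisomes, and the product is coupled to taurine, the usual partner in mice, before it is pumped into bile. Bile acids returning from the gut act through the receptor FXR (Nr1h4) and its target SHP (Nr0b2) to lower synthesis.

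The data give 1 expression value per gene and group, read here as normalized reads. Values per liver, the spread within a group and any overlap between groups therefore cannot be shown here. The group values summed to 17533080 in Huwe1_LKO and 17347886 in WT in the authors' deposited table. Each difference is the log2 ratio of the group values, Huwe1_LKO over WT, and its standard error (SE) is the one that the deposited p implies. Deposited ratios of genes with few reads appear shrunken toward 0, and as the 2 group values hold exactly this ratio, they are not plain means of the livers but appear drawn together in the same way. Differences and standard errors of such genes are understated, and for abundant genes the shrinkage could not be measured. A gene was called at the authors' adjusted p under 0.05. Huwe1 itself stood at 1784 in Huwe1_LKO and 2666 in WT by the authors' deposited table, at a log2 ratio of -0.58 and an adjusted p of 0.000425. All 6 listed hepatocyte markers were abundant, led by albumin (Alb) with 1629594 in Huwe1_LKO and 1192099 in WT in that deposited table (adjusted p = 0.0631). Of these 6, Apoa2 fell and Serpina1a rose, Alb, Ttr, Tat and Tdo2 were not called, and the median log2 ratio was 0.02. In whole tissue, fewer cells of a type and less RNA per cell cannot be told apart.

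Among the enzymes 5 of 10 fell in Huwe1_LKO livers and 0 rose in the authors' deposited table, which the submitters' notes credit to DESeq2. The genes that fell were Cyp8b1, Cyp27a1, Akr1d1, Baat and Hsd3b7. Cyp7b1 was the only member above 0 with an unadjusted p under 0.05. For comparison, 9.97% of all genes were called, 5.56% as lower and 4.41% as higher. With the most abundant eighth of genes centred at 0, 1168 genes were higher and 625 lower, and 3 of the 10 enzymes were lower and 0 higher. At an adjusted p under 0.01, the members Cyp8b1, Cyp27a1 and Akr1d1 were lower (3 of 10), where 3.37% of all genes were lower and 2.49% higher. The enzymes are abundant transcripts, 9 of them with a mean of both group values of 1000 or more, and among the 2196 genes at that level 21.5% were called, 15.5% as lower and 6.01% as higher. The median log2 ratio was -0.26 over the 10 enzymes, 0.02 over all genes and -0.08 over genes at or above 1000. Summed over the 10 enzymes, the deposited group values were 42467 in Huwe1_LKO and 54734 in WT, a ratio of 0.776, and 0.863 without Cyp8b1.

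Ordered per kilobase of gene length, the bile acid-CoA ligase Slc27a5 was the most abundant member in both genotypes and Cyp39a1 the least. Slc27a5 had 5962 normalized reads per kb in Huwe1_LKO and 5695 in WT, while Cyp39a1 had 26.8 in Huwe1_LKO and 28.2 in WT, from the authors' deposited values. In Huwe1_LKO the members next after Slc27a5 were Hsd3b7 at 3610 per kb, Cyp27a1 at 2196 and Cyp7b1 at 1834. In WT they were Hsd3b7 at 4946 per kb, Cyp8b1 at 4747 and Cyp27a1 at 4171. Cyp8b1 thus stood at place 5 in Huwe1_LKO and place 3 in WT. Whether neighbours in these orders differ beyond the spread between livers could not be examined with 1 value per group, and ratios between members below carry no error for the same reason.

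**Figure D1:**
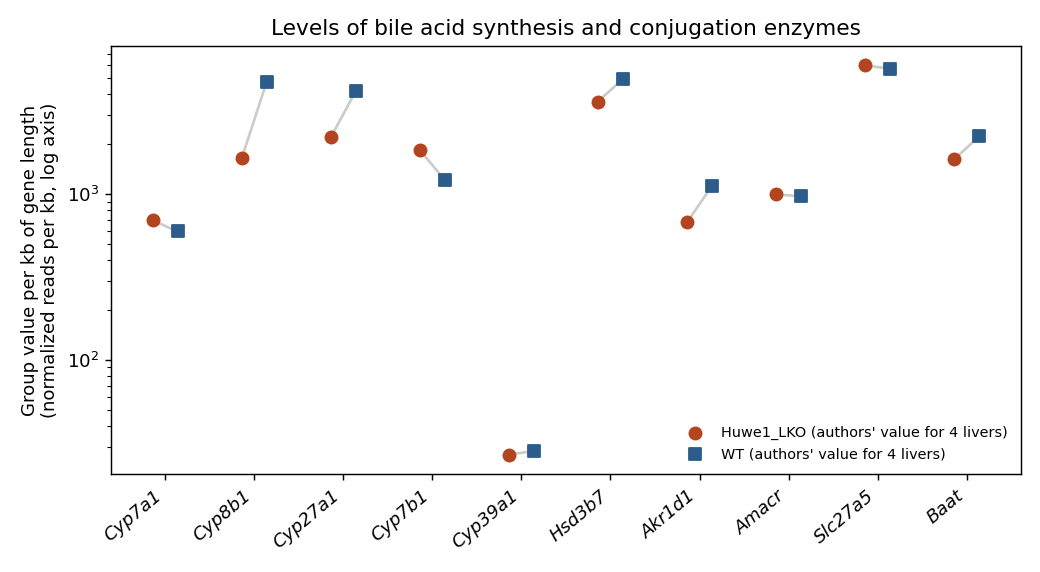
Level of each enzyme in Huwe1_LKO (circles) and WT (squares) livers, as the authors' group value per kb of gene length on a log axis, with no error bar because values per liver were not analysed here. Cyp8b1 shows the widest gap, at 1644 per kb in Huwe1_LKO and 4747 in WT, and Cyp39a1 lies far under all others in both.

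In the classical route the later P450, Cyp8b1, was called and the first, Cyp7a1, was not. Cyp7a1 (chromosome 4, 6265612 to 6275632 in GRCm38), the rate-limiting cholesterol 7-alpha-hydroxylase, had a group value of 2892 in Huwe1_LKO and 2480 in WT in the authors' deposited table. Its log2 ratio of 0.22 had a standard error of 0.28 and was not called (adjusted p = 0.79). The 95% interval, -0.33 to 0.78 on the log2 scale, leaves room for levels from 0.793 to 1.72 times those of WT.

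Cyp8b1 (chromosome 9, 121914356 to 121916305), the sterol 12-alpha-hydroxylase that directs the product towards cholic acid, fell to 3206 in Huwe1_LKO, against 9256 in WT, in the authors' deposited table. This is 34.6% of the WT level, with an interval of 0.226 to 0.531 times WT, a standard error of 0.31 on the log2 scale and a deposited adjusted p of 5.67e-05. By size of log2 ratio (-1.53) it ranked 91 of the 925 genes lower in Huwe1_LKO in the deposited table. Per kilobase, the level of Cyp8b1 was 2.37 times that of Cyp7a1 in Huwe1_LKO and 7.99 times in WT.

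The 250 bases before the start of Cyp8b1 are shown because it had the largest fall of the 10 enzymes, beside those of Hsd3b7, which also fell. Both are from RefSeq (GRCm38.p6), 5′ to 3′ on the gene's strand, with motif matches in capitals. RefSeq promoters were at hand for 4 of the 10 members, these and Cyp27a1 and Akr1d1, whose windows overlap their annotated genes and are not printed. The Cyp8b1 window lies on the minus strand at chr9:121916306-121916555 and the Hsd3b7 window on the plus strand at chr7:127800359-127800608.
Cyp8b1: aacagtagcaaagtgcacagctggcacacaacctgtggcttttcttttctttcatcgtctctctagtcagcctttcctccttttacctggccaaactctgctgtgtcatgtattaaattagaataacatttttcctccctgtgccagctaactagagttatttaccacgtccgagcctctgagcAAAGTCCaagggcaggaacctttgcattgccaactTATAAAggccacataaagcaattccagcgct
Hsd3b7: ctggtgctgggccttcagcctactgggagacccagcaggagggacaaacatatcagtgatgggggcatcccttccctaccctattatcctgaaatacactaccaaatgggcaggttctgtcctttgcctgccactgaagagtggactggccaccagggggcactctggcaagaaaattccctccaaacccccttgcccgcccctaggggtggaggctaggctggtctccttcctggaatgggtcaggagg

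Of 3 short motifs searched on both strands, chosen with these sequences in view, the core AAAGTCC bound by HNF4A lay 66 bases before the Cyp8b1 start and a TATA box, TATAAA, 31 bases before it. The Hsd3b7, Cyp27a1 and Akr1d1 windows held no match to these. None of the 4 windows held the exact letters AAGGTCA, a core bound by NR5A2 (LRH-1). Variant forms of the motifs were not searched, so a missing match cannot show that a site is absent. Among 32851 windows of the same length from all genes, 3.58% held AAAGTCC, 12.4% TATAAA and 4.08% AAGGTCA. Such letter matches describe the sequence and show no binding. Hnf4a, which encodes a nuclear receptor of hepatocyte identity and a known activator of Cyp8b1, rose in Huwe1_LKO, with 11654 against 8990 in WT in the authors' deposited table (log2 ratio 0.37, adjusted p = 0.0318). Nr5a2, another known activator of Cyp7a1 and Cyp8b1, had 455 in each genotype in the deposited table.

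The alternative route showed a lower first enzyme. Cyp27a1 (chromosome 1, 74713148 to 74737897), which hydroxylates the sterol side chain in mitochondria and serves both routes, fell to 4252 in Huwe1_LKO, against 8076 in WT, in the authors' deposited table. Its log2 ratio of -0.93 had a standard error of 0.13 (adjusted p = 6.70e-10), and its p ranked 87 among all 16640 genes of the deposited table. The interval ran from 0.439 to 0.631 times WT. The mitochondrial electron donors of this P450, ferredoxin (Fdx1) and its reductase (Fdxr), had deposited log2 ratios of -0.10 and -0.05 and were not called.

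Cyp7b1 (chromosome 3, 18071944 to 18243890), the oxysterol 7-alpha-hydroxylase that acts next, lay on the other side of 0. Its group value was 3973 in Huwe1_LKO and 2633 in WT in the authors' deposited table, 1.51-fold higher, with a standard error of 0.25 on the log2 scale. The unadjusted p was 0.0172 and the adjusted p of 0.12 missed the threshold, while after subtracting the median ratio of genes of like length and abundance the adjusted p was 0.0449. Per kilobase, Cyp27a1 stood at 1.2 times Cyp7b1 in Huwe1_LKO and 3.43 times in WT.

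Cyp7b1 is known to be higher in male than in female mouse liver, so sex-linked and sex-biased transcripts were read beside it. The Y-linked genes were present in both groups, with Eif2s3y at 686 in Huwe1_LKO and 731 in WT and Ddx3y at 939 in Huwe1_LKO and 681 in WT in the authors' deposited table, of which Ddx3y was called as higher (adjusted p = 0.0466). Of 7 other genes known to be higher in males, C6 rose and Elovl3, a fatty acid elongase, fell in the deposited table, with log2 ratios of 0.90 and -1.72. The remaining 5 were not called, and 6 of the 7 lay above 0, at a median log2 ratio of 0.40. Of 9 genes known to be higher in females, Prlr rose (0.48) and Hao2 fell (-2.07), as deposited log2 ratios. Among these 9, 4 lay above 0 and 5 below, at a median of -0.07. The part of the sex-linked and sex-biased genes in the Cyp7b1 value was not tested.

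Cyp39a1 (chromosome 17, 43667372 to 43751431), a 7-alpha-hydroxylase of 24-hydroxycholesterol, was the least abundant of the set. It had 83.2 in Huwe1_LKO and 87.5 in WT by the authors' deposited table, at a log2 ratio of -0.07, a standard error of 0.44, adjusted p = 0.959. About 683 normalized reads over all 8 livers lie behind it, against 108925 for Slc27a5. Cyp46a1, which makes its substrate and is best known from neurons, fell to 95.9 in Huwe1_LKO, against 254 in WT, in the deposited table (adjusted p = 0.00242).

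Hsd3b7 and Akr1d1, the members that act on the sterol ring without hydroxylating it, both fell, while the listed reductases of the following step were not called. Akr1d1 (chromosome 6, 37529978 to 37574921), the 5-beta-reductase that bends the ring system, had 1833 in Huwe1_LKO and 3035 in WT in the authors' deposited table, a log2 ratio of -0.73 with a standard error of 0.19 (adjusted p = 0.00233). Hsd3b7 (chromosome 7, 127800609 to 127803802), which oxidizes the 3-beta-hydroxyl group in the step before, had 6567 in Huwe1_LKO and 8997 in WT in the deposited table, a log2 ratio of -0.45 with a standard error of 0.15 (adjusted p = 0.032). The Hsd3b7 call was lost when log2 ratios were centred on the most abundant eighth of genes (adjusted p = 0.0987) or corrected for genes of like length and abundance (adjusted p = 0.183). Akr1c14 and Akr1c6, aldo-keto reductases listed for the following step, had deposited log2 ratios of -0.48 and 0.03 and were not called (adjusted p = 0.109 and 0.949).

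**Figure D2:**
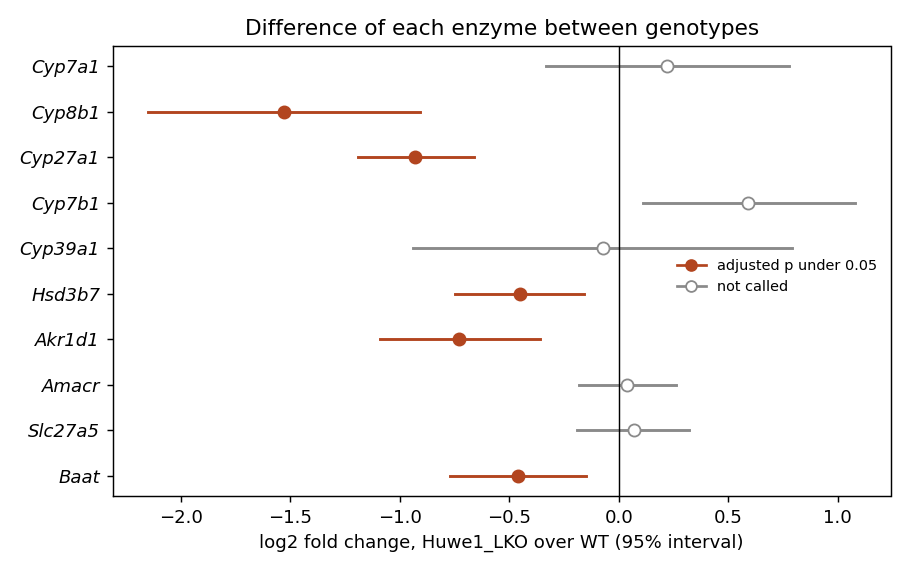
Deposited log2 ratio of each enzyme, Huwe1_LKO over WT, with the 95% interval from the standard error; filled points passed an adjusted p under 0.05. Cyp8b1 (-1.53) and Cyp27a1 (-0.93) lie farthest to the left, and the intervals of Cyp7a1, Cyp39a1, Amacr and Slc27a5 cross 0.

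In side chain shortening the racemase Amacr was not called. Amacr (chromosome 15, 10981756 to 10996624), which inverts the side chain's methyl centre so that oxidation can go on, had 2561 in Huwe1_LKO and 2494 in WT by the authors' deposited table, at a log2 ratio of 0.04 and an adjusted p of 0.909. Its interval was the narrowest of the 10 on the log2 scale, 0.883 to 1.19 times WT. The peroxisomal partners of the following steps are given gene by gene. They were grouped with the results known, so no count or median over them is read.

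Acox2, the oxidase that takes branched side chains, had 2223 in Huwe1_LKO and 4311 in WT in the authors' deposited table (log2 ratio -0.96, standard error 0.14, adjusted p = 9.18e-10). Abcd3, which carries the CoA esters into the peroxisome, had 5197 in Huwe1_LKO and 8482 in WT in the deposited table (adjusted p = 0.00626). The multifunctional enzyme Hsd17b4 had 5134 in Huwe1_LKO and 7452 in WT, and the thiolase Scp2 had 48794 in Huwe1_LKO and 63009 in WT, per the authors' deposited table (adjusted p = 0.0102 and 0.00446). Both calls were lost after correction for genes of like length and abundance (adjusted p = 0.0727 and 0.103). The thioesterase Acot8 had a deposited log2 ratio of -0.28 and missed the threshold (adjusted p = 0.128). These proteins also serve other peroxisomal substrates.

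Of the pair that couples bile acids to taurine, Baat fell and Slc27a5 was not called; the difference between them was not tested. Slc27a5 (chromosome 7, 12988346 to 12998192), which activates bile acids to CoA esters, had 13927 in Huwe1_LKO and 13304 in WT in the authors' deposited table, a log2 ratio of 0.07 with an interval of 0.876 to 1.25 times WT and an adjusted p of 0.849. Baat (chromosome 4, 49489416 to 49507915), the transferase that then adds the amino acid, fell to 3174 in Huwe1_LKO, against 4371 in WT, in the deposited table (log2 ratio -0.46, standard error 0.16, adjusted p = 0.0367). Per kilobase, Slc27a5 stood at 3.68 times Baat in Huwe1_LKO and 2.56 times in WT.

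The Baat call was lost under the same centring (adjusted p = 0.107) and correction (adjusted p = 0.193) as that of Hsd3b7. The related acyltransferases Acnat1 and Acnat2 had log2 ratios of -0.28 and -0.64 in the deposited table and were not called (adjusted p = 0.412 and 0.552). They resemble Baat in sequence, so reads may have been divided among them.

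**Figure D3:**
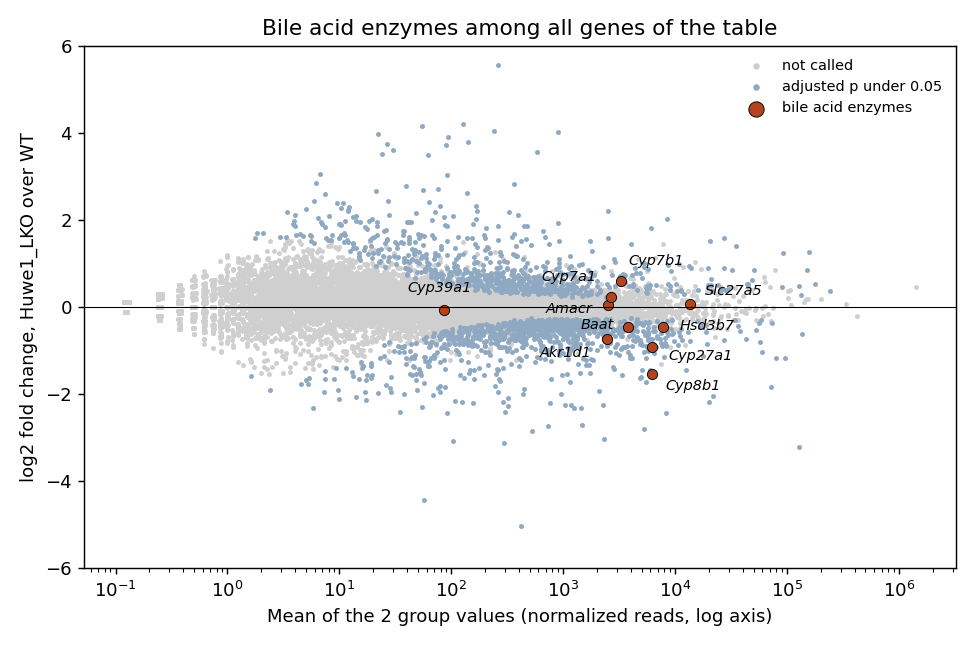
Deposited log2 ratio of every gene against the mean of both group values on a log axis, with genes at an adjusted p under 0.05 in blue and the 10 enzymes in red. Except for Cyp39a1 the enzymes sit among abundant genes, where 21.5% of genes with a mean of 1000 or more were called.

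Around the core enzymes, 5 of 20 other synthesis genes fell and 2 rose by the authors' deposited table, at a median log2 ratio of -0.12. Of these 20, 14 have a mean of 1000 or more, where 15.5% of genes were lower and 6.01% higher. The 5 that fell are Cyp46a1, Acox2, Hsd17b4, Scp2 and Abcd3, given above. All but Cyp46a1 belong to the peroxisomal steps, so the count of genes that fell largely restates them. Cyp2c70, the mouse P450 behind muricholic acids, rose to 11641 in Huwe1_LKO, against 6596 in WT, in the deposited table (log2 ratio 0.82, standard error 0.21, adjusted p = 0.00187), although it belongs to the Cyp2c cluster of similar genes, among which reads may have been divided. Per kilobase, Cyp2c70 stood at 4.14 times Cyp8b1 in Huwe1_LKO and 0.813 times in WT. Por, the reductase that feeds electrons to microsomal P450s, rose to 10120 in Huwe1_LKO, against 7037 in WT, in the authors' deposited table (adjusted p = 0.021). Slc27a2, another acyl-CoA synthetase able to activate bile acid precursors, had a deposited log2 ratio of -0.13 and was not called.

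Among 20 regulators 2 rose and 1 fell by the authors' deposited table, at a median log2 ratio of 0.01. This count is close to the background, 9.97% of all genes called and 21.5% of genes with a mean of 1000 or more, which 7 of the 20 reach. Beside Hnf4a, Prox1, a corepressor of NR5A2 and HNF4A, rose (0.51, adjusted p = 0.0466), and the oxysterol receptor Nr1h3, known as LXR-alpha, fell (-0.34, adjusted p = 0.00863), as deposited log2 ratios. The Prox1 call was lost on centring on genes with a mean of 10 or more (adjusted p = 0.0525), and that of Nr1h3 on centring on the most abundant eighth (adjusted p = 0.0683) or after the correction for length and abundance (adjusted p = 0.177). The feedback genes were not called. FXR (Nr1h4) had 3932 in Huwe1_LKO and 3100 in WT, and its target SHP (Nr0b2) had 446 in Huwe1_LKO and 729 in WT, in the authors' deposited table (adjusted p = 0.166 and 0.415). SHP had a wide interval, -1.60 to 0.18 on the log2 scale. The FGF receptor Fgfr4 and its coreceptor Klb, through which the gut hormone FGF15 lowers Cyp7a1, had deposited log2 ratios of -0.06 and 0.02.

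Of 14 transporters in the table, out of 15 listed, 2 fell and 0 rose by the authors' DESeq2 result, with a median log2 ratio of -0.10. As 11 of the 14 have a mean of 1000 or more, where 15.5% of genes were lower, this count is close to the background. Slc10a1, which takes bile acids up from blood, had 10372 in Huwe1_LKO and 15381 in WT, and Abcb11, which pumps them into bile, had 3450 in Huwe1_LKO and 6225 in WT, in the authors' deposited table (adjusted p = 0.00542 and 0.000901). The organic anion transporter Slco1a4 and the sterol exporter Abcg5 lay above 0 with an unadjusted p under 0.05 and were not called. Of 5 detoxification genes in the table, out of 7 listed, 0 passed in the authors' DESeq2 result and 1, Cyp2b10, had an unadjusted p under 0.05. The abundant bile acid hydroxylase Cyp3a11 had 64232 in Huwe1_LKO and 63365 in WT in the deposited table.

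The table's own annotation assigns 10 genes to bile acid biosynthesis, 7 of them members, and of these 10 genes 2 fell (Akr1d1 and Baat) and 0 rose in the authors' deposited table. Cyp8b1, Cyp27a1 and Hsd3b7 do not carry that term there. Star, a mitochondrial cholesterol carrier, and Pex2, a peroxisome assembly factor, carry the term too and had deposited log2 ratios of 0.49 and 0.05, neither of them called.

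**Figure D4:**
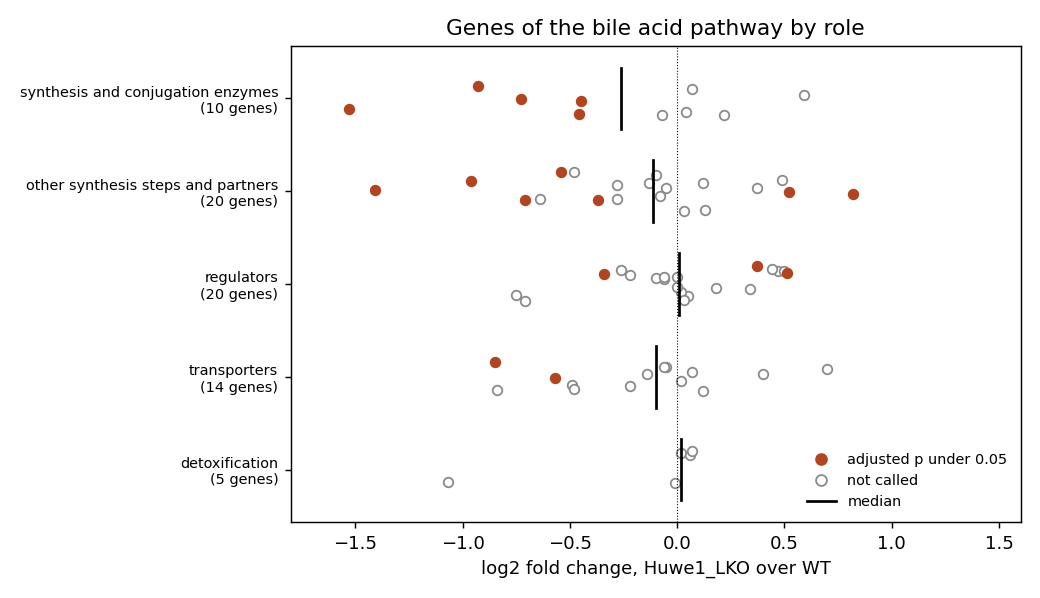
Deposited log2 ratios, Huwe1_LKO over WT, of the enzymes and of 4 other lists of the bile acid pathway; filled points passed an adjusted p under 0.05, vertical lines are medians and the height within a row has no meaning. The enzymes' median is -0.26, and the medians of the other lists lie between -0.12 and 0.02.

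Transcripts of other cells and of inflammation were read beside these values. Of 6 neutrophil markers S100a9 and Retnlg rose in the authors' deposited table. S100a8, Ngp, Camp and Ly6g were not called, and Ly6g lay below 0 (log2 ratio -0.58). The list's summed group values were 149 in Huwe1_LKO and 61.7 in WT in the deposited table. They came mostly from S100a9 (79.1 in Huwe1_LKO, 25.6 in WT) and S100a8 (28 in Huwe1_LKO, 9.89 in WT). Of 6 markers each for cholangiocytes, Kupffer cells, sinusoidal endothelium, stellate cells and lymphocytes 0 were called by the authors' DESeq2 result, with 1 at an unadjusted p under 0.05, the cholangiocyte marker Spp1. Among 12 acute-phase genes Hpx, Orm2, Saa3, Lcn2, Itih4 and Socs3 rose in the deposited table. All 12 lay above 0, with a median log2 ratio of 1.07. Of the 12, 9 have a mean of 1000 or more, where 6.01% of genes were higher. The list was chosen with earlier results of these data known, so its count and median are described and read no further. Pancreatic acinar markers other than Cela1 were near 0, with Ctrb1 at 0.883 in Huwe1_LKO and 0.84 in WT in the deposited table, and Cela1 rose. Cyp7a1, Cyp7b1 and Cyp8b1 are known to vary over the day. Of 13 clock genes, Dbp and Per3 rose in the deposited table, with log2 ratios of 0.59 and 0.62. Arntl and Nfil3 fell, with log2 ratios of -1.18 and -0.81. Arntl had low group values, 14.2 in Huwe1_LKO and 32.1 in WT. A mean of 1000 or more was reached by 7 of the 13, where 21.5% of genes were called, against 9.97% of all genes. The clock list was also chosen with earlier results known. The part of all these transcripts in the enzymes' values was not tested.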

How the data were processed

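RNA of whole livers from 4 Huwe1_LKO and 4 WT mice was sequenced by a service company, per the labels' protocols. The submitters' processing notes name the mm10 genome and DESeq2, without a version. Aligner, counting step and filters were not given in the sources used here. By its headers, the deposited table holds a depth-normalized expression signal, 1 value per gene and group, and a log2 fold change (KO/WT), per the file headers; the log2 value equals the ratio of the group values to within 4.71e-08. The deposited p-value columns hold an unadjusted p and an adjusted p, the adjusted one equal to the Benjamini-Hochberg value over 16640 genes to within 1.74e-06. In 707 genes with about 1 read in all, the log2 fold change was 0.11 to 0.12 in size, although 1 read lies in a single group, so folds and group values of low genes appear shrunken.

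The planned count model needs values per liver and could not be fitted, so calls are the authors'. Standard errors are the log2 value over the normal quantile of its two-sided p, which assumes a Wald test, and 95% intervals span 1.96 of these on either side. Group values were divided by the deposited gene length for levels per kb. Counting error was 0.303% to 3.83% of each member's reads over 8 livers. No source tells whether livers of a group came from separate litters or days, so p-values measure only the spread between these samples. Members, lists and motifs were chosen with earlier results of these data known; all members are named, and of other lists the called genes and the best known partners. Alternatives changed the threshold, the adjustment, the centring and the length and level trend. Of 16640 IDs 16608 were found in RefSeq (GRCm38), which gave coordinates. Symbols Slc51a, Sult2a1, Sult2a2, Xist and Prss1 were not matched in the table. Calculations, tested on simulated data, used scipy 1.17.1, pandas 2.3.3, numpy 2.4.6 and matplotlib 3.10.9 in Python 3.11.15.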

Additional observations from a re-analysis of the deposited data

How the results depend on the processing

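Cyp8b1, Cyp27a1 and Akr1d1 stayed called as lower under all 7 alternatives, with adjusted p of at most 0.000304, 2.02e-07 and 0.0179. The number of enzymes called lower was 5 as reported and 3 at an adjusted p under 0.01, 3 when centred on the most abundant eighth of genes (median log2 ratio -0.08) and 3 with the length and level trend removed, where 1, Cyp7b1, was also called as higher. Hsd3b7 and Baat were the calls lost each time, by construction at the stricter threshold; for the others the cause was not tested. The log2 ratio of Cyp39a1 turned to 0.01 under the centring on abundant genes, with an adjusted p of 0.994. Among the 59 other pathway genes measured, 8 were called lower and 4 higher as reported. Of these 59, 36 have a mean of 1000 or more, where 15.5% of genes were lower and 6.01% higher, so both counts are close to the background. Over all genes the shares were 5.56% lower and 4.41% higher. At an adjusted p under 0.01, 1 of the 59 was higher. With the trend removed 5 of the 59 were lower and 7 higher, and over all genes 822 were lower and 722 higher. Over all genes, centring on the abundant eighth moved the share of calls that were higher to 65.1%, against 44.2% as reported. The adjustment over genes with a mean of 1000 or more was chosen after seeing the data. No paired analysis was possible because the deposited table holds 1 value per gene and group, and for the same reason no liver could be left out and no other count tool run. Cyp39a1 had the lowest depth of the 10 enzymes, at about 683 normalized reads. Its counting error of 3.83% is that of the reads pooled over all 8 livers. Its standard error of 0.44 is that of a log2 ratio between groups, so these values are not directly comparable.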

Other observations

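Genes that mark the zones of the liver lobule, within which Cyp7a1 is known to be higher near the central vein, were also read. A mean of 1000 or more was reached by 6 of 8 pericentral and 8 of 8 periportal genes. At that level 21.5% of genes were called, 15.5% as lower and 6.01% as higher. Of 8 pericentral genes 2 fell and 1 rose by the authors' deposited table, at a median log2 ratio of 0.03. Oat, an ornithine aminotransferase, and Rgn, a calcium-binding lactonase, had log2 ratios of -0.46 and -0.41, and the glutamate transporter Slc1a2 had 0.49, in the deposited table (adjusted p = 0.0349, 0.0022 and 0.000584). Glul and Cyp2e1, other pericentral genes, had log2 ratios of -0.26 and 0.12 in the deposited table and were not called (adjusted p = 0.441 and 0.808). Of 8 periportal genes 1 rose, the P450 Cyp2f2, with 29000 in Huwe1_LKO and 22083 in WT, and 0 fell in the authors' deposited table made with DESeq2, where no other periportal gene had an unadjusted p under 0.05.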
